A study of Mus musculus with 20 samples.

Results

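Of 20 RNA-sequencing libraries from mouse heart ventricle, 11 held Myl7 at a value of at least 100 and 9 held it under 100. Myl7 encodes the regulatory light chain of atrial myosin. The 11 libraries are called Myl7-high here and the other 9 Myl7-low. The libraries of each side were chosen by their measured Myl7 values alone, so Myl7 itself is described and not tested. Values are the authors' normalized RSEM expression estimates, whose upper quartile is about 1000 in each library.

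The hearts came from male C57Bl/J6 mice that received tamoxifen at 75 mg/kg on 4 days when they were 6 to 8 weeks old. For all 20 libraries the sample annotation gives 2 weeks after tamoxifen. Acsl1H-/- mice, called knockout here, lost the long-chain acyl-CoA synthetase Acsl1 in the heart, and their Acsl1flox/flox littermates, called control, were given tamoxifen too and kept it. Mice of each genotype were also given rapamycin, which blocks the kinase mTOR, at 1 mg/kg each day for 2 weeks, or its vehicle. This made 4 groups of 5 libraries, and the submitters' design text calls them biological replicates. The promoter that drives the Cre recombinase is not given in the sources used here, and any effect of Cre itself in knockout hearts cannot be told apart from the loss of Acsl1.

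Atrial and ventricular heart muscle cells build their contractile apparatus from different light chains. In the adult mouse, atrial cells use Myl7 and Myl4, make sarcolipin (Sln), a small inhibitor of the calcium pump of the sarcoplasmic reticulum, and release atrial natriuretic peptide from Nppa. Ventricular cells use Myl2 and Myl3, and use phospholamban where atrial cells use sarcolipin. Atria meet ventricles at a fibrous plane that carries the valves, the central conduction tissue and fat.

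The promoters of 3 atrial-type genes that were high in the same libraries are shown here with those of Nppa and of the ventricular gene Myl2, so that the letters before the start of each can be compared. Each is the 250 bases before the start of the RefSeq transcript, 5' to 3' on the strand of the gene, from the assembly GRCm38.p6. They lie at chr11:5898783-5899032 (Myl7, minus strand), chr11:104550413-104550662 (Myl4, plus strand), chr3:108364661-108364910 (Mybphl, plus strand), chr4:148000472-148000721 (Nppa, plus strand) and chr5:122092474-122092723 (Myl2, plus strand, 1 of 2 starts in the table). Capitals mark matches to 6 motifs searched on both strands.
Myl7: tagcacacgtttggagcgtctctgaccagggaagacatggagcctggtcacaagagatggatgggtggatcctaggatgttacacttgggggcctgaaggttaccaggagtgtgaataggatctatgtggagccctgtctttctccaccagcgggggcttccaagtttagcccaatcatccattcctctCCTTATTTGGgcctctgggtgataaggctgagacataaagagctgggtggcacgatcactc
Myl4: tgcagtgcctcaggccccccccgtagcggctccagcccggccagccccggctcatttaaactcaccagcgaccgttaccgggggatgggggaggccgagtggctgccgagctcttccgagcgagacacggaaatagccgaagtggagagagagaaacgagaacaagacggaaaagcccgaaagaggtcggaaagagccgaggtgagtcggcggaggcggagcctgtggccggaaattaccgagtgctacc
Mybphl: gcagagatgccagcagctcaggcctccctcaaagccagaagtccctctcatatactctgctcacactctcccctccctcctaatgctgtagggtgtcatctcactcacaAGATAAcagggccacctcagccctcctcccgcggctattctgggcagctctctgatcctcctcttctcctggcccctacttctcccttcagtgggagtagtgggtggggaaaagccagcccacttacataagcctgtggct
Nppa: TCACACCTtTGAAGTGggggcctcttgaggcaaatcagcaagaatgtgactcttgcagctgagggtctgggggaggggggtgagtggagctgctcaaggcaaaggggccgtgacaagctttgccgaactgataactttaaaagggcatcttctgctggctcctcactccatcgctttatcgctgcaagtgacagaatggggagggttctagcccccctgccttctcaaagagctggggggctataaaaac
Myl2: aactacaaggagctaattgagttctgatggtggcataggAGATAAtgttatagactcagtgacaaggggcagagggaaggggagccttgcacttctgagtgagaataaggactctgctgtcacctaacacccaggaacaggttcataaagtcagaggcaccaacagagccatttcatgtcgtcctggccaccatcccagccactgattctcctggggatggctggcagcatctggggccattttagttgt
Positions count back from the base before the start, which is -1. The Myl7 promoter held a CArG box, the motif bound by serum response factor, that begins at -61, and 1.40% of 27025 promoters of the same length held such a match. The Mybphl promoter held the GATA letters AGATAA at -141 and the Myl2 promoter held them at -211, against 10.2% of all promoters. The Nppa promoter held the T-box letters AGGTGTGA on the opposite strand at -250 (1.14% of all promoters) and the NKX2-5 letters TNAAGTG at -241 (10.0% of all promoters). No match to any of the 6 motifs was in the Myl4 window, and neither the NR2F letters AGGTCA (13.8% of all promoters) nor a MEF2 match (3.01%) was in any of the 5 windows. These matches describe letters only. The submitters' notes name the build mm9, and no deposited value was tied to these coordinates.

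Myl7 spanned more than 3 orders of magnitude across libraries that carry the same tissue label. In knockout hearts under rapamycin it stood at 1211, 10265, 85.9, 25.8 and 884 in replicates 1 to 5. In knockout hearts under vehicle it stood at 7352, 1802, 3.98, 9549 and 1538. High and low libraries therefore stood side by side in each of these groups. In control hearts under rapamycin it stood at 9675, 7668, 10.1, 11.8 and 753, and in control hearts under vehicle at 35.7, 7.85, 27.8, 356 and 17.4. The library just inside the threshold was control vehicle 4 at 356, and the library just outside it was knockout rapamycin 3 at 85.9. No library was at 0. The lowest value, 3.98 in knockout vehicle 3, stood where the implied value of 1 read was 1.99. At the lowest values so few reads cannot tell little Myl7 from none.

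The 11 Myl7-high libraries fell into a pair of ranges. Myl7 was 7352 to 10265 in 5 of them and 356 to 1802 in the other 6, and medians of these ranges, 9549 and 1047, differed 9.12-fold. The upper range held 1 knockout rapamycin, 2 knockout vehicle and 2 control rapamycin libraries, and no control vehicle library.

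The split did not follow the design closely. Myl7 was high in 7 of 10 knockout and 4 of 10 control libraries (Fisher's exact test, two-sided, p = 0.37), in 6 of 10 rapamycin and 5 of 10 vehicle libraries (exact p = 1), and in 4, 3, 1 and 3 of the 5 libraries of sequencing pools 1 to 4 (exact p = 0.405). Adjusted over these 3 tables, the lowest p was 0.607. By group, 3 of 5 knockout rapamycin, 4 of 5 knockout vehicle, 3 of 5 control rapamycin and 1 of 5 control vehicle libraries were Myl7-high. The vehicle groups were thus uneven in the split and the rapamycin groups even. With 10 libraries per genotype, a difference of 7 against 4 is within counting error, and the test does not show that the genotypes were alike.

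Depth overlapped between the sides. The depth implied by the smallest step of the values was 13.0 to 20.3 M reads (M, mega) in Myl7-high libraries and 11.5 to 21.1 M reads in Myl7-low ones, with 15099 to 15605 and 14592 to 15451 genes above 0. Acsl1, the targeted gene, was 631 to 1950 in the 10 knockout libraries and 6373 to 16661 in the 10 control libraries, with no overlap. Control vehicle 1 and 3, both Myl7-low, lay far from the rest on principal component 1 (33.7% of variance), with scores of 73.4 and 84.6 against 19.3 or less for the other 18. They also had the lowest balance of long over short transcripts (a log2 long-minus-short score of -0.532 and -0.621). The count between the sides is given with and without them. So is the count between genotypes under vehicle with the split in the model. Other counts are given only with them.

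The other given atrial markers were high in the same libraries as Myl7. Myl4, the essential light chain of atrial myosin, was 434 to 10652 in Myl7-high libraries (median 2039) and 49.7 to 131 in Myl7-low ones (median 78.4). Sln was 52.2 to 2823 in Myl7-high libraries (median 530.5) and 0 to 12.03 in Myl7-low ones (median 1.96), and 3 of the 9 Myl7-low libraries had none. The sides did not overlap for either gene. On the log2(value + 1) scale, with a mean for each of the 4 groups in the fit, the sides differed by 4.77 ± 0.60 for Myl4 and 7.10 ± 0.85 for Sln (SE). They are given with no p, since they are markers of the same kind as the gene that set the sides.

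Within Myl7-high libraries Myl4 stood in a narrow ratio to Myl7. The ratio of their values, which are not per length, was 0.902 to 1.32 in the 11 Myl7-high libraries, against 1.52 to 12.5 in the 9 Myl7-low ones, where Myl4 was at least 49.7 and Myl7 as low as 3.98. Sln over Myl7 was 0.127 to 0.296 in Myl7-high libraries. Across the 6 libraries of the lower Myl7-high range, Pearson's r of log2 Myl7 was 0.993 with log2 Myl4 (Spearman's rho = 1), 0.961 with Sln (rho = 0.886) and 0.776 with Nppa (rho = 0.714), and these are given with no p since all are atrial markers. For genes that did not mark the sides, r was 0.631 with Nppb (exact permutation p = 0.196, adjusted over 5 relations p = 0.245; rho = 0.2, exact p = 0.714, adjusted p = 0.892) and -0.281 with Myl2 (exact p = 0.59, adjusted p = 0.59; rho = -0.0857, exact p = 0.919, adjusted p = 0.919). Without the 2 libraries farthest from the median of Myl7, r was 0.958 for Myl4, 0.905 for Sln, 0.527 for Nppa, 0.301 for Nppb and 0.742 for Myl2 over 4 libraries. The Myl2 value turned its sign with so few libraries. The 5 libraries of the upper range were too few for a correlation.

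**Figure D1:**
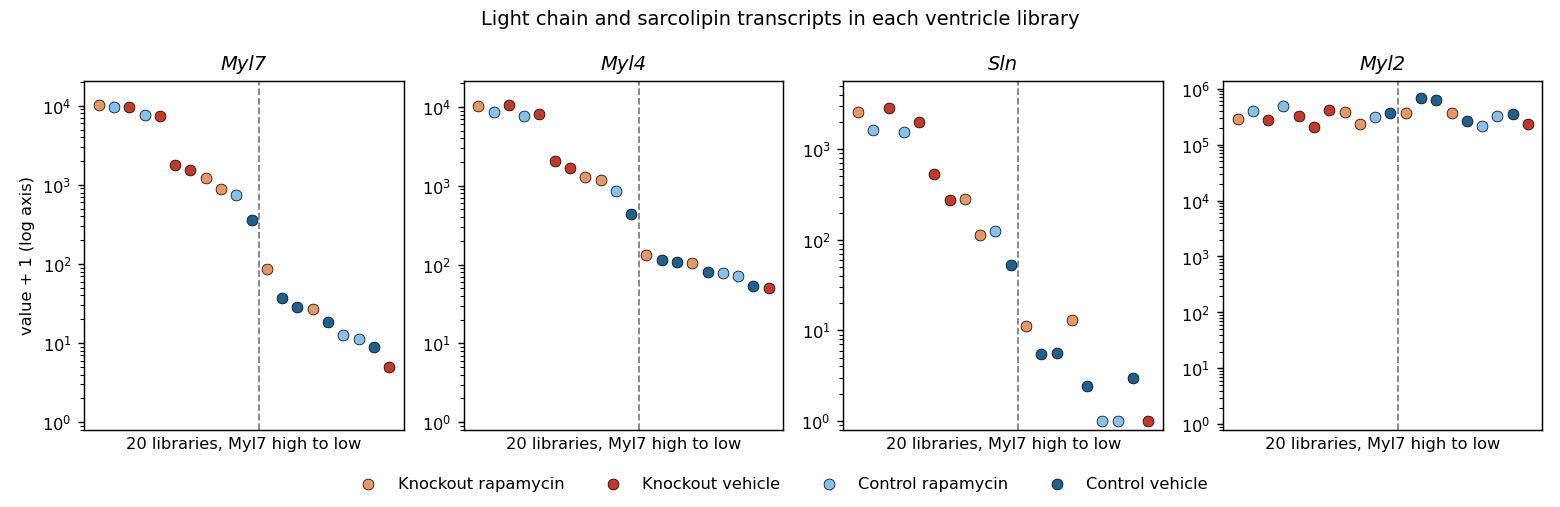
Value + 1 (log axis) of Myl7, Myl4, Sln and Myl2 in each of the 20 libraries, ordered from the highest to the lowest Myl7, with the dashed line between the 11 Myl7-high libraries on the left and the 9 Myl7-low libraries on the right and colours for the 4 groups. Every Myl7-high library lies above every Myl7-low one for Myl4 and Sln, whose highest values, 10652 and 2823, are in knockout vehicle 4 and not in the library with most Myl7, while Myl2 stays between 204684 and 681946 in every library.

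Ventricular transcripts were abundant in every library and showed no such step. Myl2 was 204684 to 487845 in Myl7-high libraries (median 317850) and 218906 to 681946 in Myl7-low ones (median 356328). The difference between the sides was 0.08 ± 0.21 on the log2 scale. Myl3, the ventricular essential light chain, differed by 0.08 ± 0.21, the slow myosin heavy chain Myh7 by 0.33 ± 0.22 and the fast chain Myh6 by -0.06 ± 0.27. None of the 11 tested genes of the ventricular list passed limma's test, 4 were higher in sign, and their median difference was -0.04, against a median of 0.04 over all tested genes, 63.6% of which were positive.

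Across all other genes, 31 of 13547 were called between the sides (adjusted p under 0.05 by limma, which fits a linear model per gene and shares the spread across genes, 0.229%), and each of them was higher in Myl7-high libraries. None was lower, and the unadjusted p was under 0.05 for 681 (5.03%). The p-values of this comparison ask only whether a gene goes with Myl7 in these same libraries. A gene was tested if it had a value of at least 10 in at least 5 libraries. Hapln1, Alox8, Hamp, Tmem163, Epyc, Retn and Tnmd reached 10 only in Myl7-high libraries. They met this filter through that side, so their p and passes are no support. Cidec, Prss35, Arnt2, Mybphl, Sln, 1500015O10Rik, Cilp2, Cpne5, Chad and Itga10 reached 10 in fewer than 5 Myl7-low libraries. These genes needed Myl7-high libraries to meet the filter, so the same limit holds for them. Myl4 and Sln, given markers of the same kind as Myl7, are counted among the 31, and their calls are no support either. In 12 of the 31 genes the sides did not overlap, against 16 such genes, all higher, among all tested (0.118%). The other 4 non-overlapping genes were Kcnj15, Pmel, S100b and Sec16b, with differences of 1.58, 1.52, 1.37 and 0.96 and adjusted p between 0.0786 and 0.189 by limma. The direction was the same in all 4 groups for 30 of the 31 genes, with Prss35 the exception at -0.05 in control vehicle. It was the same in all 4 pools for 31 of 31. The 31 were called as higher over these same libraries, so these counts of direction are no support. With pool as a term, only Hapln1 and Fmod passed. The count was 8 without knockout vehicle 3, the only Myl7-low library of its group, and the 8 genes were Hapln1, Sln, Myl4, Alox8, Cilp2, Dkk3, Col12a1 and Ifltd1. It was 16 without knockout rapamycin 4, 17 without knockout rapamycin 2, 20 without knockout vehicle 1 and 20 without knockout rapamycin 5. It was 28 when both control vehicle 1 and 3 were left out.

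**Figure D2:**
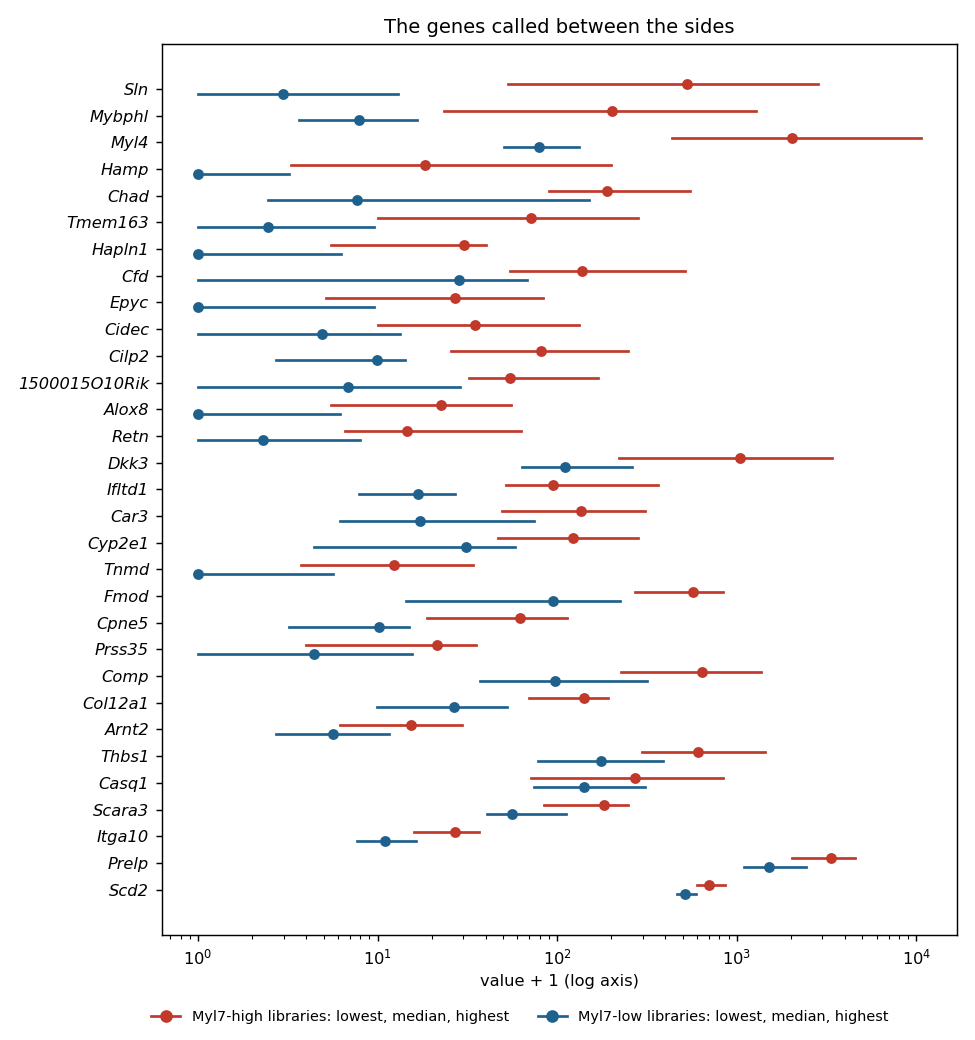
Lowest, median and highest value + 1 (log axis) of each of the 31 called genes in the 11 Myl7-high libraries (upper bar of each pair) and the 9 Myl7-low libraries (lower bar), ordered by the log2 difference. Sln leads at a difference of 7.10 and Scd2, at 0.44, has the smallest, and the bars of 12 genes do not meet.

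Atrial-type genes made up 4 of the 31, counting the given markers Myl4 and Sln, whose calls follow from how the sides were chosen. Of 24 genes on the atrial list, 21 were tested besides Myl7, and 4 of these 21 were called, 19 were higher in sign and the median difference was 0.30. Besides Myl4 and Sln these were Mybphl, a myosin-binding protein of atrial cells, and Dkk3, a secreted Dickkopf-family protein. Mybphl was 22.4 to 1286 in Myl7-high libraries (median 199.9) and 2.63 to 15.6 in Myl7-low ones (median 6.87), a difference of 4.81 ± 0.75. Dkk3 was 221 to 3372 in Myl7-high libraries (median 1043) and 62.8 to 261 in Myl7-low ones (median 109), a difference of 2.83 ± 0.39. The sides were separate for Mybphl and overlapped for Dkk3 between 221 and 261. The summed level of the list, Nppa included, was 59474 to 135582 in Myl7-high libraries and 46938 to 69670 in Myl7-low ones, and no listed gene was at 0 everywhere.

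Other genes of the atrial list were not called. With the 4 called ones, 8 of the 21 tested had an unadjusted p under 0.05 by limma, against 5.03% of all genes. The atrial list was written with earlier results of these data known, so this share is no support. The potassium channel subunits Kcna5 and Kcnj3 differed by 0.08 ± 0.16 and 0.10 ± 0.21, and the transcription factors Nr2f2 and Tbx5 by 0.00 ± 0.12 and -0.05 ± 0.17. Fgf12, an intracellular partner of sodium channels, was 12.5 to 354 in Myl7-high libraries and 0 to 13.9 in Myl7-low ones, a difference of 2.99 ± 0.71 that spread widely among the Myl7-high libraries. These 5 genes were chosen after their values were seen.

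Nppa was high in several libraries of either side. It was 3438 to 38847 in Myl7-high libraries (median 12506) and 1295 to 10842 in Myl7-low ones (median 3049), a difference of 1.37 ± 0.46 that was not called by limma. The sides overlapped over much of their range. Among Myl7-low libraries Nppa was 4087 to 10842 in the 3 knockout libraries and 1295 to 5900 in the 6 control libraries. Nppb, which encodes the brain natriuretic peptide, was 1590 to 12623 in Myl7-high libraries and 765 to 21192 in Myl7-low ones, a difference of 0.58 ± 0.58. Bmp10, a ligand made by right atrial muscle in adult mice, was too rarely detected to be tested. It was 1733 in knockout vehicle 4, 1166 in knockout rapamycin 2, 86.8 in knockout vehicle 1, 75.3 in knockout vehicle 2 and at most 2.98 in the other 16. Control rapamycin 1 and 2, with Myl7 at 9675 and 7668, both had Bmp10 at 0, so libraries alike in Myl7 differed in Bmp10.

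Matrix genes of valves and their cushions formed the list with most calls. All 10 listed genes were tested, and 5 of 10 were called by limma, against 0.229% of all genes. Of the 10, 10 were higher in sign and the median difference was 1.60. All 10 had an unadjusted p under 0.05 by limma, against 5.03% of all genes. The list was written with earlier results of these data known, so its share of calls is no support. The summed level of the list was 2100 to 6774 in Myl7-high libraries (median 5253) and 772 to 2288 in Myl7-low ones (median 1346), and the part of valve tissue in the other differences was not tested. Hapln1, a link protein that ties hyaluronan to versican, was 4.47 to 39.1 in Myl7-high libraries (median 29.2) and 0 in 8 of the 9 Myl7-low ones, the other being 5.26. Its difference was 3.89 ± 0.41 (limma, adjusted p = 0.000189), and it passed in all 20 fits that each left out 1 library. Hapln1 met the filter only through Myl7-high libraries, so these passes describe the gene and are no support. No Myl7-high library lacked it, and control rapamycin 4 was the 1 Myl7-low library that had it.

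Fmod and Comp, a small leucine-rich proteoglycan and a pentameric glycoprotein that both bind collagen, rose with it. Fmod was 271 to 843 in Myl7-high libraries (median 569.8) and 13.4 to 222 in Myl7-low ones (median 93.3), a difference of 2.26 ± 0.36 (limma, adjusted p = 0.00618). The sides did not overlap, and the call was lost without knockout vehicle 3 (2.14, adjusted p = 0.0746). Comp was 225 to 1360 in Myl7-high libraries (median 637) and 36.3 to 316 in Myl7-low ones (median 96.1), a difference of 1.92 ± 0.37 (adjusted p = 0.0313). Its sides overlapped, and it passed in 11 of 20 fits that each left out 1 library, with an adjusted p of 0.28 without knockout vehicle 3. Tnmd, the tendon membrane protein tenomodulin, chosen after its values were seen, was 2.75 to 32.9 in Myl7-high libraries and 0 to 4.64 in Myl7-low ones, a difference of 2.44 ± 0.49 (adjusted p = 0.041), and passed in 4 of 20 such fits. Tnmd met the filter only through Myl7-high libraries, so its p and passes are no support. The other called gene of the list was Dkk3, which the atrial list holds too. Vcan, Cytl1, Wif1, Sox9 and Prg4 were higher by 0.93, 0.90, 1.27, 0.88 and 0.87 and did not pass.

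Further matrix genes outside every list were among the called ones. Chad, a leucine-rich protein of cartilage, was 89.3 to 548 in Myl7-high libraries (median 188) and 1.45 to 149 in Myl7-low ones (median 6.70), a difference of 4.26 ± 0.76 (limma, adjusted p = 0.0185). The sides met only through knockout rapamycin 3, which had the highest Myl7-low value. Thbs1, the matricellular protein thrombospondin-1, was 294 to 1436 in Myl7-high libraries and 77.5 to 387 in Myl7-low ones, a difference of 1.62 ± 0.32 (adjusted p = 0.0353), and passed in 8 of 20 fits that each left out 1 library. Outside the naming rule and chosen after their values were seen were Cilp2, Col12a1, Prelp and Epyc, all matrix proteins of cartilage, tendon or fascia. Their differences were 3.12, 1.74, 0.85 and 3.36, with adjusted p of 0.00105, 0.00469, 0.00618 and 0.0255. For Cilp2 and Col12a1 the sides did not overlap, and both passed in every fit that left out 1 library. Chad, Cilp2 and Epyc needed Myl7-high libraries to meet the filter, so their p and passes are no support.

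The fibroblast list held no call beside these matrix genes. None of its 14 genes was called, 13 were higher in sign, 5 had an unadjusted p under 0.05 (5.03% of all genes did) and the median difference was 0.32. The receptor Pdgfra and the proteoglycan Dcn, which mark cardiac fibroblasts in general, differed by 0.14 ± 0.19 and 0.10 ± 0.11, and the collagen genes Col1a1 and Col3a1, chosen after their values were seen, by 1.07 ± 0.32 and 1.20 ± 0.45. The list's summed level was 86635 to 167176 in Myl7-high libraries and 69436 to 115773 in Myl7-low ones.

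Transcripts typical of fat cells also went with Myl7. Of 9 listed genes 7 were tested, and 3 of 7 were called, against 0.229% of all genes. Of the 7, 5 were higher in sign and the median difference was 2.01. This list, too, was written with earlier results of these data known, so its share of calls is no support. Cidec, a coat protein of lipid droplets, was 8.99 to 131 in Myl7-high libraries (median 34.0) and 0 to 12.3 in Myl7-low ones (median 3.92), a difference of 3.35 ± 0.61 (limma, adjusted p = 0.0216). Cfd, the secreted protease adipsin, was 53.9 to 512 in Myl7-high libraries (median 137) and 0 to 66.7 in Myl7-low ones (median 27.5), a difference of 3.42 ± 0.65 (adjusted p = 0.0287). Knockout vehicle 3 was the 1 library with both at 0. Retn, the fat hormone resistin, differed by 2.94 ± 0.58 (adjusted p = 0.0353). These 3 genes passed in 17, 13 and 8 of the 20 fits that each left out 1 library. Cidec and Retn needed Myl7-high libraries to meet the filter, so their p and passes are no support. Adipoq, which encodes adiponectin, was 6.74 to 91.7 in Myl7-high libraries and 1.72 to 26.9 in Myl7-low ones, a difference of 2.01 ± 0.49 that did not pass (adjusted p = 0.167), and the leptin gene was too low to test. Fabp4 and Plin4, which other heart cells also make, differed by -0.17 ± 0.17 and -0.31 ± 0.34. The summed level of the list, most of it Fabp4 and Plin4, was 11736 to 20565 in Myl7-high libraries and 8560 to 24559 in Myl7-low ones, and the part of fat cells in the other differences was not tested. Scd2, Car3 and Cyp2e1, which fat tissue also expresses, were called on no list, at 0.44, 2.58 and 2.55 (adjusted p = 0.0353, 0.0313 and 0.0161), and were chosen after their values were seen.

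**Figure D3:**
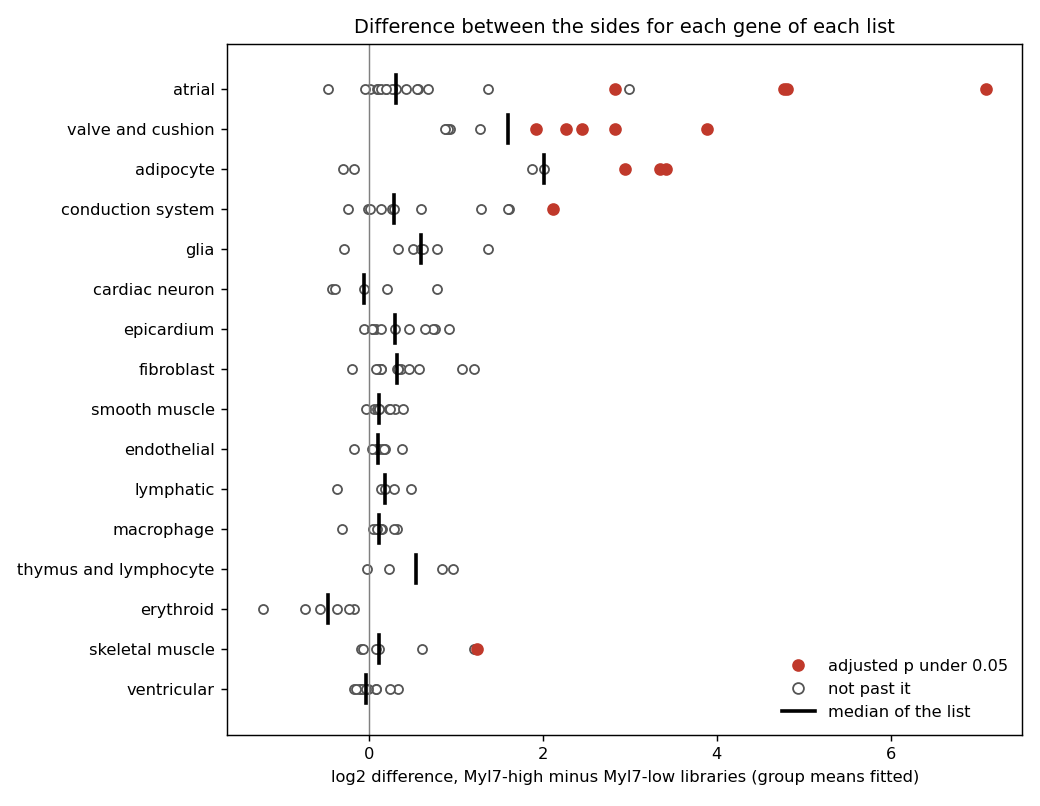
Log2 difference between Myl7-high and Myl7-low libraries for each tested gene (points) of 16 cell type lists, filled where the adjusted p is under 0.05, with the median of each list as a black bar. Called genes lie on the atrial, valve and cushion, adipocyte, conduction system and skeletal muscle lists, and the ventricular list has a median of -0.04.

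Conduction, glia and neuron lists gave 1 call in all. Of 11 tested genes of the conduction system, 1 was called, 9 were higher in sign and the median was 0.28. The called gene, Cpne5, a calcium-dependent membrane-binding protein, was 17.8 to 112 in Myl7-high libraries and 2.23 to 13.9 in Myl7-low ones without overlap, a difference of 2.11 ± 0.42 (limma, adjusted p = 0.0375). It passed in 6 of 20 fits that each left out 1 library. Cpne5 needed Myl7-high libraries to meet the filter, so its p and passes are no support. Shox2, a transcription factor of the sinus node, Cacna2d2, a calcium channel subunit, and Cntn2, a contactin of Purkinje cells, differed by 1.29 ± 0.35, 1.59 ± 0.43 and 1.60 ± 0.55 and did not pass. The pacemaker channel Hcn4, chosen after its values were seen, was present in all libraries and differed by 0.25 ± 0.17. Of 7 glia genes none was called, 6 were higher in sign and the median was 0.60, with Sox10 at 0.50 ± 0.35 and S100b, whose sides did not overlap, at 1.37 ± 0.34. Of 14 neuron genes 5 were tested, none was called and the median was -0.06, with Phox2a at -0.43 ± 0.50 and Dbh at 0.78 ± 0.20. Slc18a3, which marks cholinergic neurons, was at 0 in every library.

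Skeletal muscle genes gave 1 call. Casq1, the calcium-storing calsequestrin of skeletal muscle, was 70.2 to 840 in Myl7-high libraries (median 269) and 73.6 to 306 in Myl7-low ones (median 141), a difference of 1.24 ± 0.23 (limma, adjusted p = 0.0249). The sides overlapped, and values are therefore also given by genotype. Casq1 was 70.2 to 367 in Myl7-high and 73.6 to 105 in Myl7-low knockout libraries, and 466 to 840 in Myl7-high and 122 to 306 in Myl7-low control libraries. None of the other 7 tested genes of the list passed, 5 of these were higher in sign, and the list's median was 0.11, with Pvalb at 1.21 ± 0.73, Acta1 at 0.61 ± 0.51 and Actn3 at -0.10 ± 0.13.

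The remaining cell type lists held no called gene. Of 11 epicardial genes 10 were higher in sign, with a median of 0.30 (Wt1 -0.06 ± 0.17, Upk3b 0.75 ± 0.87). Of 9 smooth muscle genes 8 were higher in sign, with a median of 0.11 (Myh11 0.29 ± 0.30, Acta2 0.22 ± 0.24). The endothelial, lymphatic and macrophage lists had medians of 0.10, 0.18 and 0.11 over 10, 5 and 8 genes, with Pecam1 at 0.08 ± 0.15, Cdh5 at 0.10 ± 0.15, Lyve1 at -0.38 ± 0.22, Prox1 at 0.28 ± 0.21, Cd68 at 0.31 ± 0.16 and Emr1 at 0.28 ± 0.20. These medians were near that of all genes. The 4 tested genes of thymus and lymphocytes had a median of 0.53, with Cd4 at -0.03 ± 0.25 and Ptcra at 0.22 ± 0.24. Lung epithelium left 1 tested gene, Hopx, which heart muscle also makes (-0.01 ± 0.14), while Sftpc, Sftpa1 and Sftpd were at 0 in every library. All 6 tested erythroid genes were lower in sign and none was called, with a median of -0.47, Hbb-b1 at -0.57 ± 0.38 and Beta-s at -0.17 ± 0.31. Globin genes are near-identical copies, so their single values are uncertain.

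Lists of fatty acid oxidation, potassium channel, calcium handling and sarcomere genes moved little. Fatty acid oxidation genes had a median of -0.04 over 17 genes, 3 of them higher in sign and none called, with Cpt1a at 0.08 ± 0.18, Cpt1b at -0.03 ± 0.08 and Acsl1 at 0.12 ± 0.22. Potassium channel genes had a median of 0.04 over 14 genes with none called, and Kcnj2, the main inward rectifier of ventricular cells, differed by -0.04 ± 0.21. Calcium handling genes had a median of 0.04 over 13 genes, with the given marker Sln the only call. Camk2d, Slc8a1 and Pln were at 0.12 ± 0.08, 0.14 ± 0.10 and -0.09 ± 0.09. Sarcomere genes had a median of 0.05 over 17 genes besides Myl7, with the given marker Myl4 the only call and Tcap at -0.26 ± 0.18. Fetal and stress genes stood higher, with a median of 0.28 over 10 genes, 9 higher in sign and none called.

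Among the called genes, some also differed between the upper and lower Myl7-high ranges. Comparing the 5 libraries with Myl7 over 3000 with the 6 between 100 and 3000, 7 of the 31 genes were higher without overlap and none was lower, against 35 of 13547 genes higher (0.258%) and 9 lower (0.0664%) among all tested. These 7 were Sln, Myl4, Mybphl, Hamp, Tmem163, Ifltd1 and Alox8. Ratios of the medians of the 2 ranges were 10.0 for Sln, 7.11 for Myl4, 8.98 for Mybphl, 8.24 for Hamp, 8.57 for Tmem163, 4.23 for Ifltd1 and 2.72 for Alox8, beside 9.12 for Myl7. Hamp, which encodes the iron hormone hepcidin, was 66.0 to 199 in the upper range, 2.28 to 17.4 in the lower range and 0 in 8 of the 9 Myl7-low libraries. Stard10, a lipid transfer protein on the atrial list, was not called between the sides but was 1836 to 2447 in the upper range, 730.5 to 1062 in the lower range and 497 to 1571 in Myl7-low libraries. The 3000 boundary, Hamp and Stard10 were chosen after the values were seen.

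The other called genes, which include all called matrix and adipocyte genes, had overlapping values in the upper and lower ranges. The ratio of the medians was between 0.65 and 1.27 for Hapln1 (1.14), Fmod (1.09), Comp (0.65), Chad (1.25), Col12a1 (1.00), Thbs1 (0.771), Cidec (1.27) and Cfd (1.19). It was larger for other genes of the same lists or kind, at 2.16 for Dkk3, 1.90 for Tnmd, 1.68 for Retn, 2.02 for Cilp2 and 1.42 for Epyc. Fmod was 287 to 750 in the upper range and 271 to 843 in the lower one. Over the 31 genes the median was higher in the upper range for 23 and lower for 8. A fit with log2(Myl7 + 1) in place of the split called 40 genes, of which 23 were among the 31. In that fit Nppa had a slope of 0.25 ± 0.05 on the log2 scale per log2 unit of Myl7. Nppa was called there, though not with the split, and as it is an atrial marker the call is no support. Whether the ratios differ between kinds of gene was not tested. In bulk tissue, fewer cells of a type and less RNA per cell cannot be told apart.

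**Figure D4:**
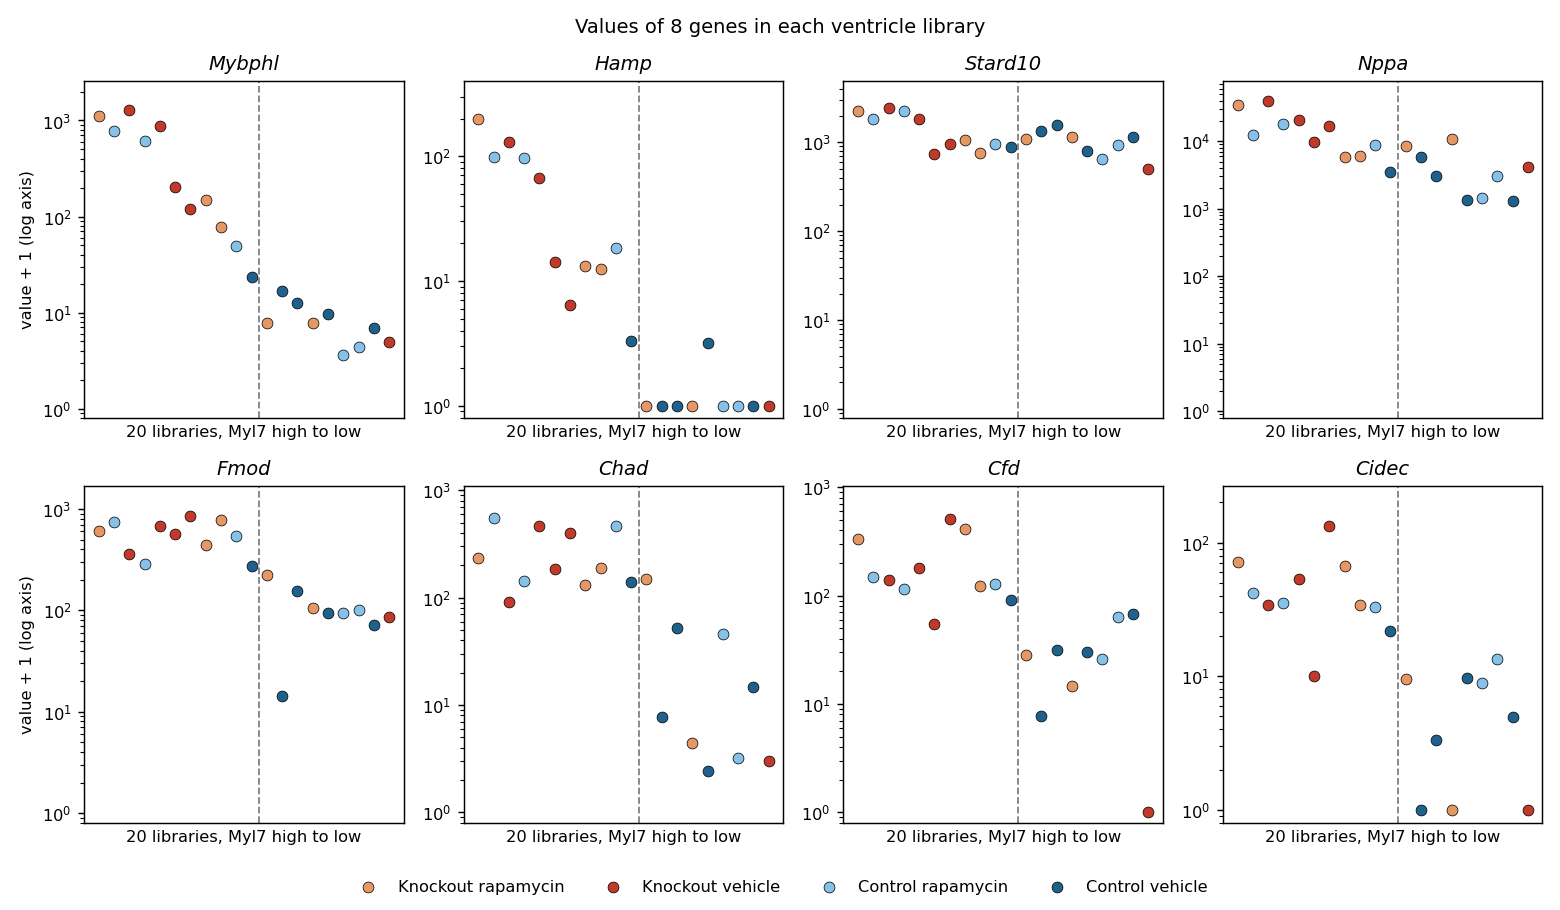
Value + 1 (log axis) of 8 genes in the 20 libraries ordered from the highest to the lowest Myl7, with the dashed line between Myl7-high (left) and Myl7-low libraries (right) and colours for the 4 groups. Mybphl, Hamp and Stard10 are highest in the 5 libraries at the far left, and Fmod, Chad, Cfd and Cidec are lower right of the dashed line, with some overlap for all but Fmod.

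The difference between the sides was not shown to differ between the genotypes. No gene passed for the split by genotype term (0 of 13547 genes by limma, 294 at an unadjusted p under 0.05, 2.17%). Among the called genes the largest such terms were 3.41 for Cfd, 2.58 for Prss35 and 2.51 for Cidec, each with an adjusted p of 1.00. Cfd differed between the sides by 3.64 in knockout rapamycin, 7.34 in knockout vehicle, 1.68 in control rapamycin and 1.77 in control vehicle. The knockout vehicle value rests on 1 Myl7-low library in which Cfd was 0.

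Adding the split to the model left fewer genes called between knockout and control hearts under vehicle, where the sides were least even. With the split as a term 5 of 13548 genes were called (limma, 0.0369%), and without it 33 (0.244%), which include the same 5. Esr1, the estrogen receptor gene, was higher by 8.58 ± 0.23 with the term and 8.53 ± 0.21 without it. It was 39614 to 62622 in knockout and 84.2 to 239 in control libraries, and A1cf was 0 in every control library. Knockout hearts differ from control hearts in Cre as well as in Acsl1, and the source of the Esr1 and A1cf transcripts was not tested. A1cf, an RNA-binding partner of an mRNA-editing enzyme, was higher by 4.78 ± 0.49 and 4.79 ± 0.44, and Acsl1 was lower at -3.07 ± 0.31 and -3.00 ± 0.28. 1110002L01Rik was higher by 1.31 ± 0.20 with the term (adjusted p = 0.0129), and Egflam, a matrix protein of the dystroglycan complex, was lower at -0.70 ± 0.12 (adjusted p = 0.0255). Without the term 1110002L01Rik was higher by 1.20 ± 0.19 and Egflam was lower at -0.72 ± 0.10. All 5 genes kept their direction and their call with the term. With the term, leaving out knockout vehicle 3 gave a count of 3, leaving out knockout vehicle 4 gave 9 and leaving out control vehicle 4 gave 3. Leaving out both control vehicle 1 and 3 gave 3. The fit without the term, with its 33 genes, was not repeated without control vehicle 1 and 3.

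The 28 genes that lost their call all kept their direction. Their log2 differences with the term were 0.777 to 1.17 times those without it (median 0.919), and 25 of 28 were smaller. Their SE was 0.93 to 1.13 times as large (median 1.11), and their adjusted p with the term ran from 0.054 to 0.216. The difference of Mthfd2, the mitochondrial folate enzyme, was 1.59 ± 0.29 with the term and 1.73 ± 0.27 without it. Myoc, a secreted matrix protein, showed the largest fall among these genes, to 1.13 ± 0.25 with the term against 1.45 ± 0.27 without it. Gcnt1, a glycosyltransferase, was one of 3 that grew, at 1.23 ± 0.22 with the term and 1.05 ± 0.21 without it. Mthfd2, Myoc and Gcnt1 were chosen after their values were seen.

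**Figure D5:**
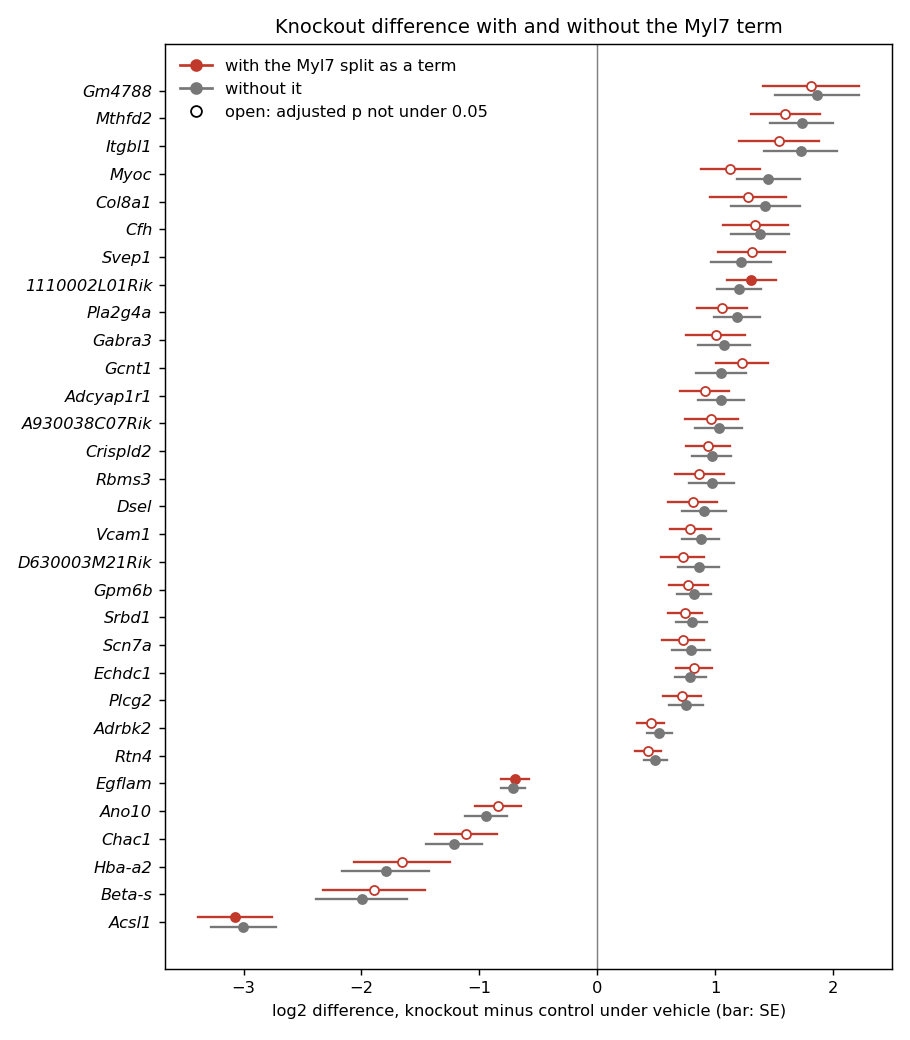
Log2 difference between knockout and control hearts under vehicle with its SE, with the Myl7 split as a term (red, upper point of each pair) and without it (grey), for 31 of the 33 genes called without it (Esr1 and A1cf, at over 4, are left out). Points keep their side of 0 for each gene, and most red points are open, with an adjusted p of 0.05 or more.

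Of the 31 genes called between the sides, all 31 had a lower knockout difference under vehicle with the term than without it, which follows from the model, since they are higher in Myl7-high libraries and the knockout group held more of these. All 31 were higher in knockout hearts without the term, and 8 turned their sign with it, namely Arnt2, Casq1, Cfd, Chad, Cidec, Cyp2e1, Prss35 and Retn. Cfd differed by -1.25 ± 0.91 with the term and 0.80 ± 1.26 without it, Sln by 0.94 ± 1.19 and 5.20 ± 2.27, and Fmod by 0.90 ± 0.51 and 2.26 ± 0.78. Nppa, which was not called between the sides, differed by 1.63 ± 0.64 with the term and 2.45 ± 0.68 without it. None of these 4 genes passed in either fit. Nppa is widely read as a sign of heart muscle stress. Myl7-high libraries made up 4 of 5 knockout and 1 of 5 control libraries under vehicle, and their part in these differences was not tested apart from the term.

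Under rapamycin both genotypes had 3 Myl7-high and 2 Myl7-low libraries, so the term could not move the knockout differences and changed only their SE. There 4 genes were called with the term (limma, 0.0295%) and 3 without it (0.0221%), and 3 were shared. The additional gene was Casq1, lower in knockout hearts at -1.81 with an SE of 0.29 with the term (adjusted p = 0.0187) and 0.45 without it (adjusted p = 0.69). Rapamycin against vehicle gave no called gene in knockout hearts with the term (728 at an unadjusted p under 0.05, 5.37%) and 1 without it (0.00738%), the pyruvate dehydrogenase component Pdhx at -0.63 ± 0.10 (adjusted p = 0.0467), and none in control hearts in either fit (1304 genes at an unadjusted p under 0.05 with the term, 9.63%, and 2024 without it, 14.9%).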

How the data were processed

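Poly(A) RNA of 20 heart ventricle samples was sequenced in 4 pools, per the labels. Each deposited table cell is a normalized signal, an RSEM estimate that the authors' file name calls normalized. The values themselves show the scale: the 75th percentile of those above 0 was 996.6 to 1000 in every library. The submitters' processing notes name Picard 1.64, SAMtools, RSEM and the build mm9, and the aligner is not given in these sources. The signal values are not counts, and 86.6% to 88.5% of low values were whole multiples of a step within 0.05 reads, too few to recover reads.

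Values were analysed as log2(value + 1), which understates differences of low genes. Of 21705 genes, 13548 had a value of at least 10 in at least 5 libraries. One model with a mean per group and the Myl7 split was fitted with limma 3.58.1 (R 4.3.3) with an intensity trend, two-sided, and adjusted by the Benjamini-Hochberg method at 0.05. Exact and permutation tests used scipy 1.17.1 and enumeration. Correlations were computed within the 6 libraries of the lower Myl7-high range, since the 11 libraries form separate ranges. The fit was tested on simulated data. Promoters are RefSeq windows of GRCm38.p6.

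The libraries, the 22 gene lists and the tests were chosen with earlier results of these data known. The naming rule took the 3 given markers, 8 fixed heart genes, up to 10 genes with the largest difference among those called with a mean of at least 100 and the same sign in every group, up to 4 members of each list with a called gene (of other lists the first 2 measured) and up to 8 genes per genotype or drug contrast; a few genes of the lists are not reported here. Alternatives were other pseudocounts, filters, scalings, terms and thresholds, and leaving out each library. P-values measure the spread between samples that the design text calls biological replicates.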

Additional observations from a re-analysis of the deposited data

Results flagged for a closer look

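Within the 4 groups of 5 libraries, 39 genes other than Myl7 gave 155 group tests for a library far from the others on the log2 scale. Chance flags about 1 in 20 groups, or 7.75 here, and 8 values stood out, so their number is about what chance gives. Prss35 was 0 in knockout vehicle 3, against 10.4 to 13.0 in the others of the group. Chad and 1500015O10Rik were both 3.44 in knockout rapamycin 4, against 131 to 231 and 27.5 to 53.4 in the others.

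Control vehicle 4, the only Myl7-high library of its group, stood out as far above the others for 4 genes. It was also the highest of its group for genes that did not stand out in this test, such as Myl4 and Fmod. Hapln1 and Alox8 were both 4.47 there and 0 in the other 4 libraries. Sln was 52.2, against 1.45 to 4.64, and Casq1 was 466, against 122 to 151. In knockout rapamycin 2, Bmp10 was 1166, against 0 to 1.38 in the others of that group. Because these libraries were placed by Myl7, outlying values of genes that go with Myl7 are not independent of the split.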

How the results depend on the processing

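All 31 genes called between the sides were higher in Myl7-high libraries under every alternative that gave them a value (1067 of 1067 values), but the number called moved. The 31 were chosen as higher in these same libraries, so their sign was nearly set in advance and is no support. Against 31, the count was 8 with a mean of at least 100, 18 after quantile normalization, 2 with pool as a term, 0 with the Myl7 split at 30, 48 with array weights and robust empirical Bayes (whose weights did not fully converge), 48 with the long-minus-short score and 17 with the split at 3000, a setting chosen after seeing the data that shares 5 genes. The filter at a mean of at least 100 kept 13 of the 31 genes, and 8 of these 13 stayed called. Leaving out 1 library gave 8 to 33. The replicate block called 0 genes, but nothing says that same-numbered libraries share an animal or day, and over 30 same-numbered pairs deviations correlated at -0.515 to 0.427 (median 0.0324), so the numbers do not pair the samples. The cause of these changes was not tested. Quantile normalization and median-ratio rescaling moved the share of positive differences over all genes to 47.0% and 47.5%, against 63.6%, and left every call higher.

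For knockout against control under vehicle the count of 5 became 3 with a mean of at least 100, 12 with the split at 30, 8 with a continuous Myl7 term, 39 with array weights, 3 without control vehicle 1 and 3, 3 with the long-minus-short score, 33 with no Myl7 term, and 3 to 9 without 1 library. Under rapamycin the count of 4 became 17 with array weights. For rapamycin in knockout hearts 0 became 57 with array weights, 235 with the long-minus-short score, 1 with no Myl7 term and 0 to 1 without 1 library. The split by genotype count of 0 became 42 with array weights and 0 to 1 without 1 library.

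Signs turned only in values that were not called: with the split at 3000, Nppb (-0.228), Acta1 (-0.782), Pln (0.0117) and Tcap (0.0816); with the split at 30, Acsl1 (-0.0963) and r of Myl7 with Nppb (-0.459). Without 1 library, Myl2 ranged from -0.0452 to 0.166, Myl3 from -0.0502 to 0.17, Myh6 from -0.168 to 0.0511, Acsl1 from -0.045 to 0.237, and r of Myl7 with Myl2 from -0.593 to 0.132.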

Other observations

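With log2(Myl7 + 1) in place of the split, genes outside the 31 that were called include Gata5, a cardiac transcription factor (slope 0.31, limma adjusted p = 0.0442), Pam, the enzyme that amidates peptide hormones (slope 0.06, adjusted p = 0.0442), Fgf12 (slope 0.46), Shox2 (slope 0.21, adjusted p = 0.0166) and Cacna2d2 (slope 0.24, adjusted p = 0.0442). Each slope is a log2 difference per log2 unit of Myl7 over 20 libraries. Fgf12 and Shox2 needed Myl7-high libraries to meet the filter, so their calls are no support. Pam was 23148 to 32654 in the 5 libraries with Myl7 over 3000, 17866 to 25063 in the 6 between 100 and 3000, and 15425 to 23093 in the 9 Myl7-low ones.

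The implied depth of 11.5 to 21.1 M reads limits the lowest genes. Hapln1 and Hamp were at 0 in 8 of 9 Myl7-low libraries, so a fitted difference for them depends on the added 1 and is no bound. Tests with 1 Myl7-low knockout vehicle and 1 Myl7-high control vehicle library rest on the spread of the other groups.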
